A study of Homo sapiens with 4 samples.

Results

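Transcripts of 10 immediate early and growth-response genes, MYC, IER3, DUSP6, ZFP36, KLF10, MCL1, JUND, JUN, JUNB and EGR1, were examined in LS180, an established line of human colon carcinoma cells. The genes were taken as a list of names, drawn up with earlier results of these data known, and all 19 probe sets annotated to them on the Affymetrix HG-U95Av2 array were used, out of 10943 probe sets with a single gene symbol that represent 8225 genes. MYC had 4 probe sets, JUND 3, KLF10, MCL1, JUN and JUNB a pair each, and IER3, DUSP6, ZFP36 and EGR1 had 1 each. The group is named for the short life of its mRNAs, which these arrays do not measure.

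The samples were 4 arrays, 1 for each group: polysomal RNA of RBM35A+ cells, polysomal RNA of RBM35A− cells, total RNA of RBM35A+ cells and total RNA of RBM35A− cells. RBM35A, now called ESRP1, regulates splicing and is made mainly in epithelial cells. RBM35A+ cells were Tet-off LS180-RBM35A cells in which RBM35A protein had been restored by leaving doxycycline out of the medium for 6 days or more. As RBM35A− served the parental cells kept in doxycycline, and the labels do not say whether they carried the construct, so RBM35A, doxycycline and possibly the construct differed together. Polysomal RNA, the RNA carrying several ribosomes, was taken from pooled sucrose gradient fractions of cells washed with cycloheximide, which arrests ribosomes on mRNA, while the total RNA was extracted with TRIZOL and its protocol names no cycloheximide. In the labels the molecule is polyA RNA for polysomal samples only, so fraction, extraction and any poly(A) selection cannot be told apart. The study asked how restored RBM35A alters mRNA in the total and in the polysomal pool.

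Immediate early genes are transcribed within minutes of a growth signal without new protein synthesis. The signal travels through the RAS, RAF, MEK and ERK kinases to the serum response factor SRF and its ETS partners, which bind CArG boxes in promoters, and through AP-1 and CREB family proteins. Many of the mRNAs hold AU-rich elements near the 3′ end that mark them for rapid decay, so their levels follow transcription closely. MYC, the central growth regulator of the group, is also a target of Wnt signalling in the intestinal crypt and in colon carcinoma.

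RefSeq promoter windows (GRCh38.p14) were at hand for 6 of the 10 genes, EGR1, JUN, JUND, JUNB, DUSP6 and ZFP36. The 250 bases before the start of EGR1 and JUN, the members with no signal on any array, and of JUND, which was measured on every array, are shown because they hold the response elements for which this gene class is known. Capitals mark CArG boxes in EGR1 and matches to TGACNTCA, the AP-1 and CREB type of element, in JUN and JUND.
EGR1: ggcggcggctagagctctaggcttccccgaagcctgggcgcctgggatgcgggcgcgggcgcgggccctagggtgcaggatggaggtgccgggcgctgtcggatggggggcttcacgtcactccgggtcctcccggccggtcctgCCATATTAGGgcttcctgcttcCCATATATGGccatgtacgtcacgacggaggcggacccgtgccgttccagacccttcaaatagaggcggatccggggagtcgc
JUN: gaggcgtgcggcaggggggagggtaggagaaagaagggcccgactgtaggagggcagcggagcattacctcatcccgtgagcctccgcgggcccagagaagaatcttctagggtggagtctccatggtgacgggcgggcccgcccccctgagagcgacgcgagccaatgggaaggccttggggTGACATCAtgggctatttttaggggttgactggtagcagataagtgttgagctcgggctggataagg
JUND: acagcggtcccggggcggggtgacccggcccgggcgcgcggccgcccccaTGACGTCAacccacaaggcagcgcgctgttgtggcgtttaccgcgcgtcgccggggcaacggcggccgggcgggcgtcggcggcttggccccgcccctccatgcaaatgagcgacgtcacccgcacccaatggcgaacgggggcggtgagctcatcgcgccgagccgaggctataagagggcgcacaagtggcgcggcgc

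The windows lie at chr5:138465229-138465478 on the plus strand for EGR1, chr1:58784048-58784297 on the minus strand for JUN and chr19:18281623-18281872 on the minus strand for JUND. EGR1 had 2 CArG boxes, and JUN and JUND had 1 match to TGACNTCA each. Of the 6 member windows 1 held a CArG box and 2 held TGACNTCA, and those of JUNB, DUSP6 and ZFP36 held neither. Both strands were searched, and no marked match overlapped another. Among 27305 promoter windows of this length a CArG box occurred in 1.14% and TGACNTCA in 7.09%. The 7-base AP-1 motif TGANTCA, found in 6.6% of all windows, matched 0 of the 6 member windows. These are matches of letters in the genome, and binding was not measured.

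Values are the deposited log2 values made with GCRMA. A probe set was taken as measured in a fraction where it reached a log2 value of 5, the floor, on at least 1 of the 2 arrays of that fraction, and lower values were raised to 5. All differences are log2 differences with no replicate check, because there was 1 array a group. The disagreement between probe sets of the same gene gave an SD of 0.192 for the RBM35A difference of 1 probe set in polysomal RNA (407 genes) and 0.21 in total RNA (438 genes), which covers probes and not cultures. In these bulk extracts, less of a transcript in every cell and fewer cells with it cannot be told apart. With 0 probe sets for RBM35A on the array, its restoration could not be checked here. Of 12 colon epithelium markers 11 were measured, all but KRT20. Of 9 fibroblast and endothelial markers on the array 1 was measured (COL1A1), and of 7 blood markers 1 (HBB).

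JUN and EGR1 were not measured in either fraction. EGR1, a zinc-finger transcription factor, read 2.25 in polysomal RBM35A+ RNA, 2.26 in polysomal RBM35A− RNA and 2.22 on both total RNA arrays. The first JUN probe set, 1895_at, was deposited at 2.22 on all 4 arrays, at or next to the lowest value of each array. The other, 32583_at, read 2.90 in RBM35A+ and 2.91 in RBM35A− cells in polysomal RNA, and 2.50 and 2.71 in the same order in total RNA. JUN is the founding subunit of AP-1, the dimer of JUN and FOS family proteins. No difference is given for these 3 probe sets. The remaining 8 genes were measured in both fractions, with 13 probe sets in polysomal RNA and 16 in total RNA.

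**Figure D1:**
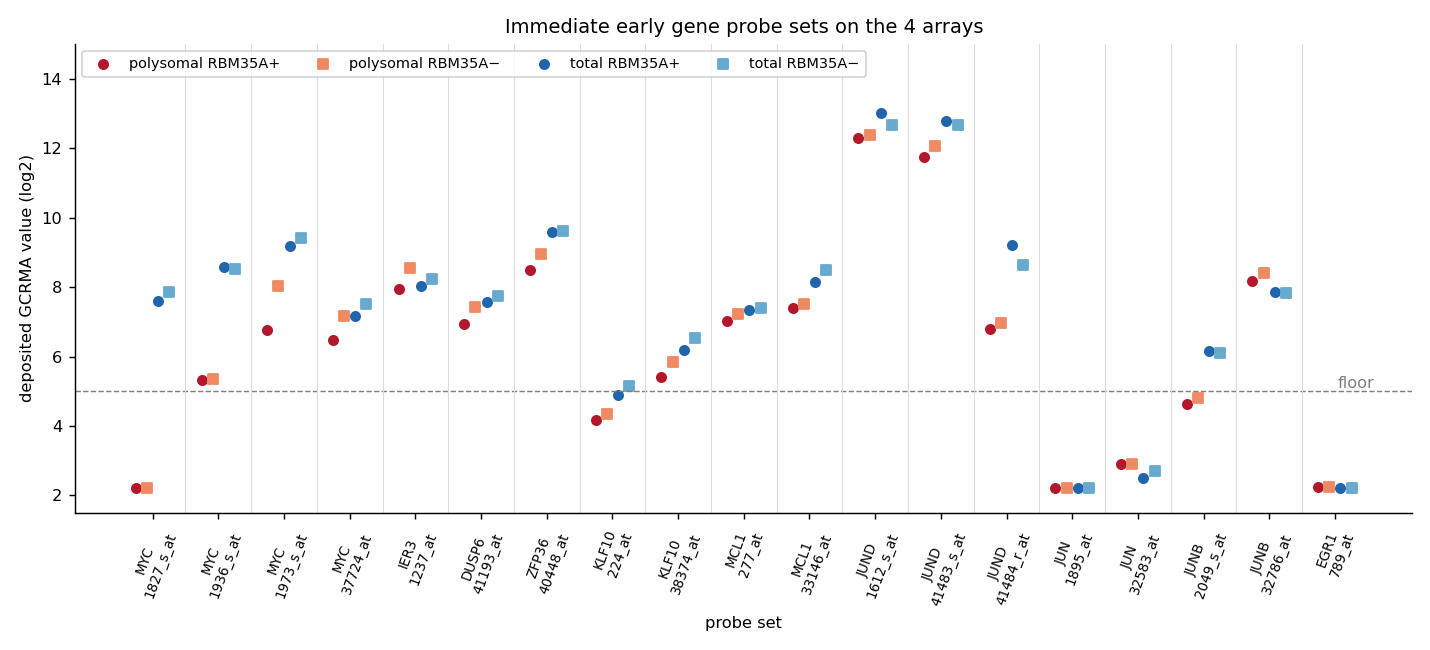
Deposited log2 values of the 19 probe sets (columns) on the 4 arrays: polysomal RNA in red and orange, total RNA in dark and light blue, RBM35A+ as circles and RBM35A− as squares, with the floor of 5 dashed. MYC 1973_s_at reads 6.77 in polysomal RBM35A+ RNA against 8.04 in polysomal RBM35A− RNA, and JUN and EGR1 stay under 3 on all arrays.

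In polysomal RNA all 13 measured probe sets of the 8 genes were lower in RBM35A+ than in RBM35A− cells, where 44.2% of 3871 measured probe sets lay below 0. At least 1.5-fold lower were 3 of the 13, a pair of MYC probe sets and the one of IER3, against 1.7% of all measured probe sets. None (0) was 1.5-fold higher, against 0.723% of all, and 1 was at least 2-fold lower, against 0.232%. The member median was −0.33, beside 0.02 over all measured probe sets. Several probe sets share a gene, so the 13 are not separate genes. Some of the 13 differences were smaller than the probe set SD of 0.192. These were MYC 1936_s_at (−0.04), JUND 1612_s_at (−0.08), MCL1 33146_at (−0.13) and JUND 41484_r_at (−0.18).

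MYC, a transcription factor that drives ribosome production and cell growth, gave different answers by probe set. Probe set 1973_s_at read 6.77 in polysomal RBM35A+ RNA and 8.04 in polysomal RBM35A− RNA, a difference of −1.27, or 2.41-fold lower. Only 2 of the 3871 probe sets were lower, 1 each of PPP5C (−1.66) and TMEM259 (−1.65). Probe set 37724_at, which is annotated to the same source record as 1973_s_at, read 6.47 and 7.16 in RBM35A+ and RBM35A− cells, a difference of −0.69 or 1.61-fold lower. Both of these differences exceeded the probe set SD, which was 0.201 for levels of 5 to 7 and 0.169 for levels of 7 to 9. The suffix _s_at marks probes that match more than 1 transcript, and _r_at a set for which probe choice was restricted.

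The other MYC probe sets did not show this. Probe set 1936_s_at, annotated without a source record, read 5.32 and 5.36 in polysomal RNA of RBM35A+ and RBM35A− cells, just above the floor, with a difference of −0.04. Probe set 1827_s_at had no usable polysomal signal: it was deposited at 2.22 on both polysomal arrays, the lowest value there, which 1998 of 12626 probe sets shared within 0.001. Over the 3 probe sets with a polysomal difference the mean was −0.67 with an SD of 0.61, so the size of the MYC difference depended on the probe set read.

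IER3, an apoptosis and ERK signalling modulator induced by growth and stress signals, read 7.93 in polysomal RBM35A+ RNA against 8.56 in polysomal RBM35A− RNA. That difference of −0.63 was 1.54-fold, just past the threshold. DUSP6, the cytoplasmic phosphatase that switches ERK off and is itself induced by ERK, read 6.95 in RBM35A+ against 7.44 in RBM35A− polysomal RNA, a difference of −0.49. ZFP36, also called tristetraprolin, binds AU-rich elements and recruits the deadenylation machinery. It read 8.48 in RBM35A+ and 8.95 in RBM35A− polysomal RNA, a difference of −0.46. These 3 genes have a single probe set each, so no second reading was at hand.

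KLF10, a zinc-finger repressor induced by TGF-beta, read 5.42 against 5.83 at probe set 38374_at in polysomal RBM35A+ and RBM35A− RNA, a difference of −0.41. Its other probe set, 224_at, lay under the floor at 4.18 and 4.34. MCL1, a short-lived anti-apoptotic BCL2 family protein, differed little: 277_at read 7.03 against 7.24 (−0.21) and 33146_at 7.39 against 7.52 (−0.13). Of these, −0.13 was smaller and −0.21 larger than the probe set SD of 0.169 at these levels.

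The JUN family members that were measured were lower by less than 1.5-fold. JUND, an AP-1 subunit often linked to slower growth, read 12.29 against 12.37 at 1612_s_at in polysomal RBM35A+ and RBM35A− RNA (−0.08). Its probe set 41483_s_at read 11.74 against 12.07 (−0.33), and 41484_r_at read 6.78 against 6.96 (−0.18). JUNB, an AP-1 subunit that can oppose JUN, read 8.17 against 8.39 at 32786_at (−0.23), while 2049_s_at lay under the floor at 4.63 and 4.80. All 4 of these differences lay nearer to 0 than that of IER3.

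The 5′ control probe sets were also lower in polysomal RBM35A+ than in polysomal RBM35A− RNA. For beta-actin, polysomal RBM35A+ minus RBM35A− was −0.86 with 5′ probes, −0.44 with middle probes and −0.02 with 3′ probes, and for GAPDH it was −0.79, −0.33 and −0.13. In total RNA the same beta-actin probe sets differed by −0.05, 0.27 and −0.06, and those of GAPDH by −0.03, −0.11 and −0.16. Where the probes of MYC, IER3 and the other members lie along their transcripts was not used here, and the part of this 5′ difference in their values was not tested. Among the 294 measured probe sets whose polysomal signal was on average at least 2-fold below their total signal, a class set after the values were seen and using the same polysomal values, 10.9% were at least 1.5-fold lower in polysomal RBM35A+ RNA and 64.6% were below 0. Among the other 3577 the shares were 0.951% and 42.5%. MYC 1973_s_at, MYC 1936_s_at and JUND 41484_r_at fell in that class, and MYC 37724_at and IER3 did not.

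**Figure D2:**
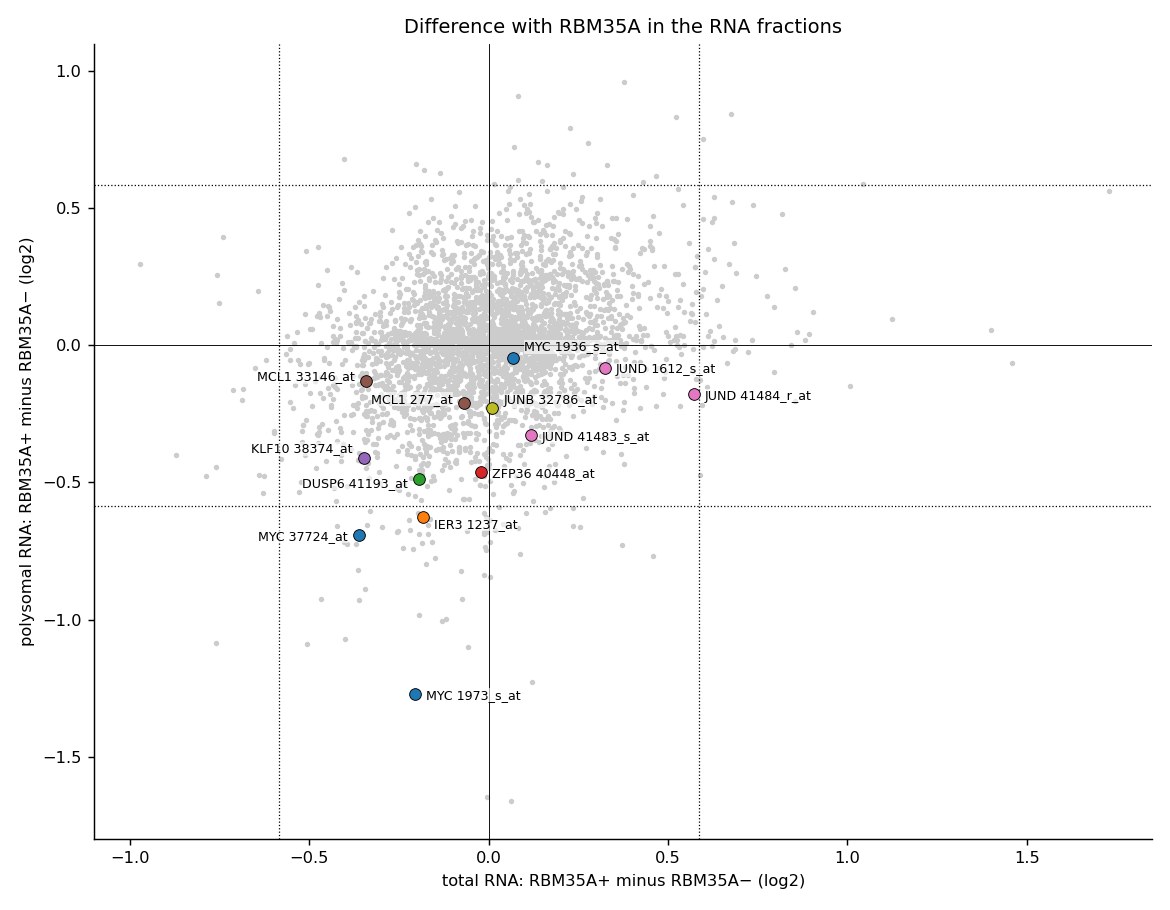
RBM35A+ minus RBM35A− (log2) in polysomal RNA (vertical axis) against total RNA (horizontal axis) for the 13 member probe sets measured in both fractions (coloured by gene) and all probe sets measured in both (grey); dotted lines mark 1.5-fold. All 13 lie below 0 on the vertical axis, with MYC 1973_s_at at −1.27, and JUND lies to the right of 0.

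In total RNA 0 of the 16 measured member probe sets were 1.5-fold lower and 0 were 1.5-fold higher, against 0.986% and 1.51% of 3853 measured probe sets. At 2-fold 0 members were higher, against 0.156% of all. Below 0 were 10 of 16, beside 50.4% of all. The member median was −0.11 and that of all probe sets −0.004, and the members ran between −0.36 and 0.57.

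For MYC, 3 of 4 probe sets in total RNA were lower in RBM35A+ cells, by less than 1.5-fold. Probe set 37724_at read 7.16 in RBM35A+ and 7.52 in RBM35A− cells (−0.36), and 1827_s_at read 7.61 and 7.87 (−0.26). Probe set 1973_s_at read 9.19 and 9.40 (−0.21), and 1936_s_at read 8.58 and 8.51 (0.07). The mean over the 4 was −0.19 with an SD of 0.18, so MYC in total RNA differed by about the spread among its probe sets.

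Among the genes read once, IER3 was at 8.05 in total RNA of RBM35A+ cells and 8.23 in RBM35A− cells (−0.18), and DUSP6 at 7.56 and 7.75 (−0.19). ZFP36 was nearly equal, at 9.59 and 9.61 (−0.02). KLF10 38374_at read 6.20 and 6.54 (−0.35), and KLF10 224_at read 4.89 and 5.15, of which only the RBM35A− value reached the floor, so its −0.15 is a lower bound in size. The MCL1 probe sets read 8.16 and 8.50 (−0.34) at 33146_at and 7.34 and 7.41 (−0.07) at 277_at. KLF10 and MCL1 each had 1 probe set near −0.35 and another nearer 0.

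JUND went the other way in total RNA at each of its 3 probe sets. RBM35A+ and RBM35A− cells read 13.00 and 12.68 at 1612_s_at (0.32), 12.78 and 12.66 at 41483_s_at (0.12), and 9.22 and 8.64 at 41484_r_at (0.57). The last was rank 65 from the highest of 3853 probe sets, and it passed 1.5-fold at 0.589 once a smooth trend on mean level was removed. Every JUND probe set carries the suffix _s_at or _r_at. JUNB differed by 0.07 at 2049_s_at (6.16 and 6.09) and by 0.01 at 32786_at (7.85 and 7.84).

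The difference between the fractions was then taken per probe set, as the polysomal minus the total RBM35A difference. It lay below 0 for 12 of the 13 member probe sets, against 50% of 3549, with a member median of −0.33 beside 0.00 over all. At least 1.5-fold below 0 were 2 of 13, MYC 1973_s_at at −1.06 and JUND 41484_r_at at −0.75, against 2.68% of all. Both carry a suffix for shared or restricted probes, and without such probe sets the count was 0 of 8. None (0) was 1.5-fold above 0, against 1.04% of all, or 2-fold above 0, against 0.113%. At least 2-fold below 0 was 1, MYC 1973_s_at, against 0.394%. The SD of 1 probe set for this quantity was 0.243 (358 genes).

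Of the other probe sets, IER3 and ZFP36 were at −0.44, JUND 41483_s_at at −0.45 and 1612_s_at at −0.41, MYC 37724_at at −0.33 and DUSP6 at −0.30. JUNB 32786_at was at −0.24 and MCL1 277_at at −0.14, while MYC 1936_s_at (−0.11) and KLF10 38374_at (−0.06) were near 0. MCL1 33146_at was the exception above 0, at 0.21. For MYC 1973_s_at, MYC 37724_at and IER3 the polysomal difference was the larger and the total difference lay on the same side of 0. The 3 JUND probe sets, JUNB 32786_at and MYC 1936_s_at had differences of opposite sign in the fractions. In each of these, at least 1 of the differences was smaller than the probe set SD of its fraction over all levels, 0.192 in polysomal and 0.21 in total RNA. At levels of 9 or more the SD was 0.153 in polysomal and 0.114 in total RNA. JUND 41483_s_at, at −0.33 and 0.12, exceeded both of these.

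Most members also had less signal in polysomal than in total RNA. The polysomal arrays were normalized apart from the total RNA arrays, so these values are read against all probe sets. Polysomal minus total was below 0 for 14 of 16 member probe sets in RBM35A+ cells, against 45.2% of 4175, and for 14 of 16 in RBM35A− cells, against 45.4%. At least 2-fold lower in polysomal RNA were 7 of 16 in RBM35A+ and 5 of 16 in RBM35A− cells, against 9.39% and 9.2% of all. In both states these were MYC 1827_s_at, 1936_s_at and 1973_s_at, JUND 41484_r_at and JUNB 2049_s_at, joined in RBM35A+ cells by JUND 41483_s_at and ZFP36. Several share a gene, and the polysomal values of MYC 1827_s_at and JUNB 2049_s_at lay under the floor. The member medians were −0.77 and −0.63, beside 0.05 and 0.06 over all probe sets in RBM35A+ and RBM35A− cells.

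The MYC probe sets were all below 0 and far apart. Polysomal minus total was −3.26 in RBM35A+ and −3.15 in RBM35A− cells at 1936_s_at, and at 1827_s_at it was −2.61 and −2.87, which are upper bounds because the polysomal values lay at the floor. At 1973_s_at it was −2.43 and −1.36, and at 37724_at −0.69 and −0.36. Probe set 1936_s_at had rank 16 from the lowest of 4175 in RBM35A+ cells. Over all genes the SD of 1 probe set for this quantity was 0.84 in RBM35A+ and 0.807 in RBM35A− cells, so probe sets of one gene often disagreed here.

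Among the other members, JUND ran between −2.43 at 41484_r_at and −0.72 at 1612_s_at in RBM35A+ cells, and between −1.68 and −0.31 in RBM35A− cells. ZFP36 was at −1.11 and −0.66, DUSP6 at −0.61 and −0.31 and KLF10 38374_at at −0.77 and −0.71. KLF10 224_at was at 0 in RBM35A+ cells, where both its values lay under the floor, and had an upper bound of −0.15 in RBM35A− cells. The MCL1 probe sets were at −0.77 and −0.98 (33146_at) and at −0.31 and −0.17 (277_at). IER3 was at −0.11 and 0.33, and JUNB 32786_at was above 0 in both states, at 0.31 and 0.55, while JUNB 2049_s_at had upper bounds of −1.16 and −1.09.

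Control probe sets differed between the fractions by position. Polysomal minus total was −5.32 in RBM35A+ and −4.51 in RBM35A− cells for 5′ beta-actin probes, and −0.27 and −0.30 for 3′ probes. GAPDH gave −2.59 and −1.83 with 5′ probes and −0.14 and −0.16 with 3′ probes. The part of probe position in the spread among the MYC and JUND probe sets was not tested.

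**Figure D3:**
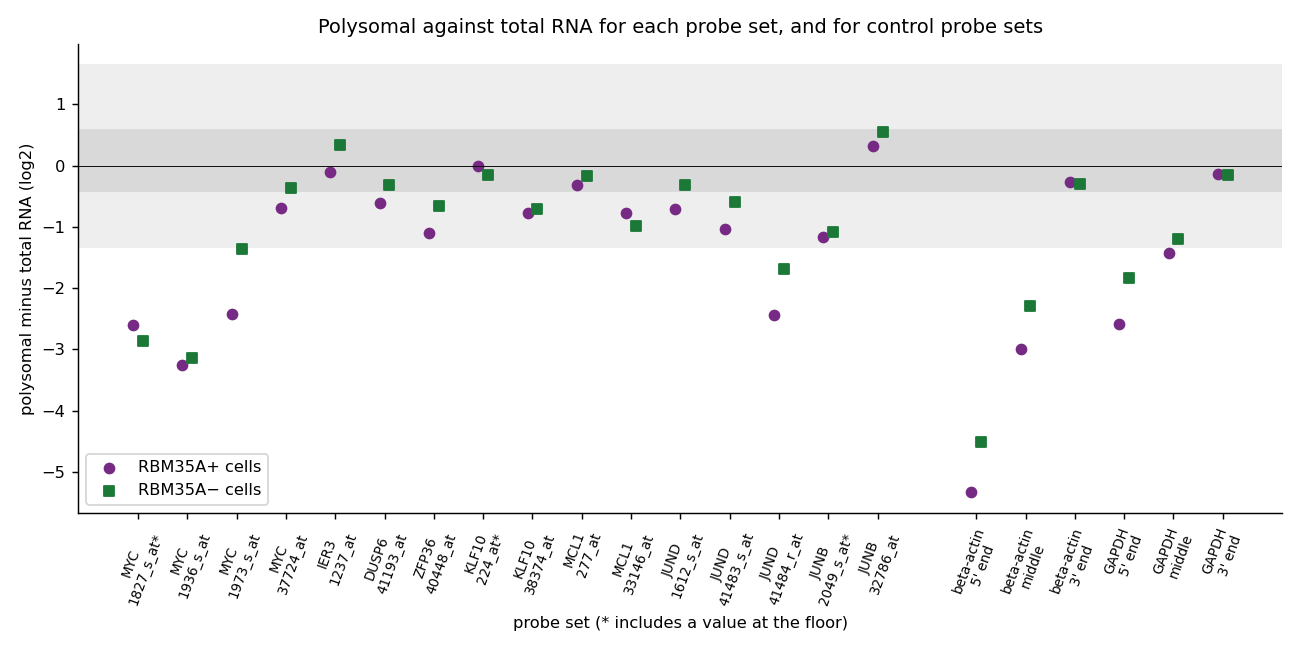
Polysomal minus total RNA (log2) in RBM35A+ (purple circles) and RBM35A− cells (green squares) for the 16 measured member probe sets, left, and the beta-actin and GAPDH controls (5′, middle and 3′), right. Grey bands hold the middle 50% and 90% of all measured probe sets in RBM35A− cells; MYC ranges from −3.26 to −0.36 over its probe sets.

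The pattern over the 4 arrays most like that of MYC 1973_s_at was sought among 3404 probe sets of other genes with all values at or over the floor, by the Euclidean distance after subtracting each probe set's mean. The nearest 5 were PCK1 33702_f_at (distance 0.34), ARPC4 34691_f_at (0.40), PPP5C 391_at (0.46), FKBP1A 953_g_at (0.46) and PHLDA1 35909_at (0.47), against a median distance of 2.17. PCK1, the gluconeogenic enzyme PEPCK, read 5.27 and 6.19 in polysomal RNA and 7.66 and 8.02 in total RNA (RBM35A+ cells, then RBM35A− cells). PHLDA1, itself a growth-induced gene, read 7.02 and 7.68 in polysomal RNA and 9.13 and 9.56 in total RNA. With 4 arrays the likeness describes these arrays only.

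Further immediate early and growth-response genes were read from another list of 59 genes, of which 52 were on the array. This list too was drawn up with earlier results of these data known, so it is no independent check. In polysomal RNA 17 genes with 23 probe sets were measured, 17 of the 23 were below 0, against 44.2% of all measured probe sets, and the median was −0.17 beside 0.02 over all. At 1.5-fold 2 were lower, against 1.7% of all, and 0 higher, against 0.723%. The growth factor gene VEGFA was at −0.76 at 36101_s_at, and at −0.03 and −0.07 at its other probe sets. PHLDA1 was at −0.66, and the NF-kappaB inhibitor NFKBIA lay above 0 at 0.58. In total RNA 11 of 24 probe sets were below 0, against 50.4% of all, the median was 0.01, 0 were 1.5-fold lower and 0 higher, and CEBPB (−0.48), PHLDA1 (−0.42) and IER2 (−0.27) differed most.

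Genes that work with MYC were read next. For this and the following lists, counts stand beside the shares of all measured probe sets past 1.5-fold. These were 1.7% lower and 0.723% higher in polysomal RNA, and 0.986% lower and 1.51% higher in total RNA. A count of 0 in lists this short is near those shares. Of the partners and antagonists of MYC, 12 probe sets in polysomal RNA had a median of −0.06 and 13 in total RNA one of 0.03. In both fractions 0 passed 1.5-fold in either direction. MLXIP (0.35), BIN1 (−0.28, other probe set −0.16) and RUVBL1 (0.25) differed most in polysomal RNA, and BIN1 (−0.43, other probe set 0.09), MLX (−0.37) and the MYC-binding protein MYCBP (−0.27) in total RNA. MYC target genes had a median of 0.05 over 26 probe sets in polysomal RNA and −0.05 over 28 in total RNA, again with 0 past 1.5-fold. The targets that differed most were the DNA repair enzyme APEX1 (−0.43), the initiation factor EIF2S1 (0.33) and the transferrin receptor TFRC (0.32) in polysomal RNA, and the pyrimidine synthesis enzyme CAD (0.42, other probe set 0.18), APEX1 (−0.34) and the spermidine synthase SRM (0.30) in total RNA.

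Genes of AU-rich element binding and mRNA decay had medians of −0.04 over 24 probe sets in polysomal RNA and −0.09 over 23 in total RNA, with 0 past 1.5-fold. ZFP36L2, a relative of ZFP36, was at −0.42 (other probe set −0.13), the nonsense-mediated decay helicase UPF1 at 0.35 and the poly(A)-binding protein PABPC1 at −0.26 (other probe set −0.03) in polysomal RNA, and UPF1 (0.43), TIA1 (0.40) and HNRNPA1 (0.39) differed most in total RNA. In a list of factors tied to MYC or its RNA, 0 of 13 probe sets in polysomal and 0 of 12 in total RNA passed 1.5-fold. FUBP3, of the family named for binding upstream of MYC, was at −0.57 and −0.43 in polysomal and total RNA, PCBP1 at 0.22 and 0.32, HNRNPK at 0.23 in polysomal RNA and HNRNPA1 at 0.39 in total RNA.

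The ERK cascade and SRF, which lie upstream of the group, had medians of 0.02 over 23 probe sets in polysomal RNA and −0.02 over 29 in total RNA. In polysomal RNA 1 of the 23 was 1.5-fold lower, against 1.7% of all measured probe sets, and 0 were higher, against 0.723%. The lower probe set belonged to the receptor gene ERBB2, which read 6.49 in RBM35A+ and 7.49 in RBM35A− cells at 1802_s_at, while ERBB2 33218_at gave −0.25. ERBB3 1742_at was at 0.56, with other probe sets at 0.04 to 0.23, and the phosphatase DUSP3 was at −0.50. In total RNA 0 passed 1.5-fold, and the kinase ERK1, MAPK3, was at −0.54, ERBB3 32787_at at −0.41, with other probe sets between −0.39 and 0.05, and HRAS 35701_at at 0.32, with −0.25 at the other HRAS probe set.

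**Figure D4:**
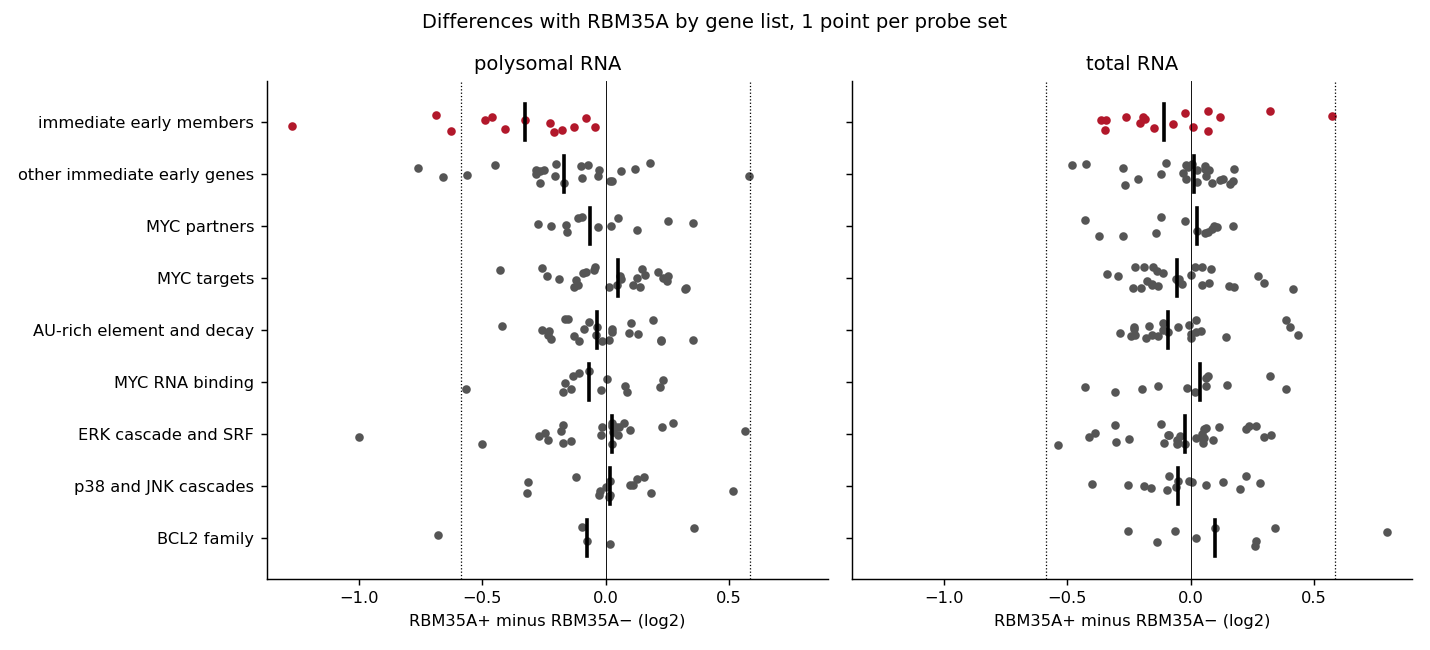
RBM35A+ minus RBM35A− (log2) for each measured probe set (points) of the members (red) and of 8 further gene lists (grey), in polysomal RNA (left) and total RNA (right), with the median as a black bar and 1.5-fold dotted; vertical jitter carries no value. The member median is −0.33 in polysomal RNA and −0.11 in total RNA, and that of the other immediate early genes is −0.17 and 0.01.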

How the data were processed

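The authors deposited log2 values. The submitters' processing notes name GCRMA, which subtracts a background modelled on probe base composition and then summarises each probe set, with no version given in the sources used here. Sorted values differed by at most 4.29e-06 between the total RNA arrays and 6.61e-06 between the polysomal arrays, but by up to 0.227 across fractions, so each pair was normalized apart and a shift of most genes within a pair would be lost.

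Of the 12626 probe sets per array 67 were controls. GEO's platform annotation gave 10943 a single symbol, 546 several and 1070 none, and 10934 of the first matched a current symbol by gene ID in a RefSeq table of GRCh38.p14. Per the labels' protocols 10 µg of RNA was used per array. Differences, counts and medians were computed with Python 3.11.15 and pandas 2.3.3, and the counting was tested on simulated data. With 1 array per group no test was run and no p-value exists, and the number of arrays limits the precision. The members and all gene lists were chosen with earlier results of these data known. Named genes were all members, the 3 genes per list that differed most in each fraction, and the 5 probe sets nearest to MYC in pattern. PPP5C, TMEM259 and the class of probe sets by polysomal minus total were named after their values were seen. Other floors, normalizations and ways to combine probe sets were tried.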

Additional observations from a re-analysis of the deposited data

Results flagged for a closer look

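For 5 member probe sets the difference with RBM35A had opposite signs in the fractions, below 0 in polysomal and above 0 in total RNA. The polysomal minus total difference of differences was −0.41 for JUND 1612_s_at, −0.45 for JUND 41483_s_at, −0.75 for JUND 41484_r_at, −0.24 for JUNB 32786_at and −0.11 for MYC 1936_s_at. The difference was not tested, since each side rests on 1 array per group. Differences above 0 in total and below 0 in polysomal RNA occurred in 5 of 13 members, 3 of them probe sets of JUND, and in 17.8% of the 3549 probe sets measured in both fractions. Opposite signs in either direction occurred in the same 5 members and in 39.3% of the 3549. Each of the 5 had a side smaller than the probe set SD over all levels, 0.192 in polysomal and 0.21 in total RNA. JUNB 32786_at was at 0.01 in total RNA, and MYC 1936_s_at at −0.04 and 0.07 in polysomal and total RNA. For JUND, 1612_s_at was at −0.08 and 41484_r_at at −0.18 in polysomal RNA, and 41483_s_at at 0.12 in total RNA. For levels of 9 or more the SD was 0.114 in total and 0.153 in polysomal RNA. Both sides of JUND 41483_s_at, 0.12 and −0.33, exceeded these.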

How the results depend on the processing

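No paired analysis was possible because each group had 1 array. In polysomal RNA the 3 probe sets at least 1.5-fold lower were 3 under floors of 4 and 6, with no floor, with quantile normalization of all arrays together and with a trend on level removed. All 3 read above 6 on both polysomal arrays, so no floor setting could alter their values. The polysomal arrays already had nearly equal sorted values, so joint quantile normalization could change these differences little. They were 2 of 8 without probe sets of shared sequence, and 2 of 8 genes with the probe set of highest mean or a mean over the probe sets of a gene. All 8 were below 0 in each of these last settings, against 13 of 13. The polysomal median ran from −0.44 to −0.18, and without a floor 17 of 19 were below 0. In total RNA the count 1.5-fold higher became 1 with the trend removed, 6 of 8 genes were below 0 by either gene summary, and 8 of 9 probe sets were below 0 without shared sequence. The total RNA median, −0.11, was −0.18 without shared sequence and −0.19 by either gene summary, and ran from −0.19 to −0.07 over all settings. For the difference of differences the count of 2 became 0 without shared sequence, 1 with 1 probe set per gene and 0 with gene means, and 7 of 8 were below 0 in each. These settings count fewer probe sets or genes. Of 318 single probe set values under another setting, 310 moved by less than the probe set SD, 0 called values changed sign and 8 moved further, all of them polysomal minus total values of MYC 1827_s_at and JUNB 2049_s_at, whose polysomal values lie under the floor. Probe sets above every floor could not move under the floor settings, and these are among the 310. For polysomal minus total the SD was wide, at 0.84 in RBM35A+ cells. There KLF10 224_at went from 0 to −0.71 with a floor of 4 and still counts among the 310. JUN and EGR1 gave no usable signal under any floor of 4 to 6.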

Other observations

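Stress kinases and BCL2 family genes share inputs or outputs with the immediate early genes and were read the same way. For the p38 and JNK cascades the median was 0.02 over 15 probe sets in polysomal RNA and −0.05 over 15 in total RNA, with 0 past 1.5-fold in either direction. The p38 kinase activator MAP2K3 was at 0.52, MAP3K11 at −0.32 (other probe set 0.02) and MAPK13 at −0.32 in polysomal RNA. In total RNA MAPKAPK2 was at −0.40, with −0.06 and −0.01 at its other probe sets, MAPKAPK3 at 0.28 (other probe sets −0.09 and 0.13) and MAPK9 at −0.25 (other probe set 0.01).

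Of the BCL2 family, the relatives of MCL1, 5 probe sets were measured in polysomal RNA with a median of −0.08, and 9 in total RNA with a median of 0.10. BNIP3, which acts in mitochondrial autophagy, was at −0.68 in polysomal RNA, reading 5.62 in RBM35A+ and 6.29 in RBM35A− cells. It was the 1 of 5 probe sets past 1.5-fold there, where 1.7% of all measured probe sets were that much lower and 0.723% higher. BAX, a pro-apoptotic member, was at 0.80 in total RNA at 1997_s_at, reading 7.61 in RBM35A+ and 6.81 in RBM35A− cells, while 1998_i_at gave 0.26. In polysomal RNA these BAX probe sets were at −0.10 and 0.36, and BNIP3L was at −0.08. BCL2L2 (0.34) and BAK1 (0.26, other probe set 0.10) followed in total RNA.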
